A study of Mus musculus with 2 samples.

Results

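The genes described here encode 56 molecular chaperones and their close partners: the heat shock proteins of the cytosol, the chaperonins of the cytosol and mitochondria, the folding factors of the endoplasmic reticulum (ER), and 3 transcription factors that control them. They were chosen by gene symbol from the platform's annotation of the array, among 30698 genes that have a row of their own. Of the 56 genes, 49 had such a row above the low-signal level, 5 (Hspa1b, Dnaja1, Cct6a, Pdia4 and Manf) lay only on rows annotated to several genes, and Hsp90ab1 and Hsf1 have no named row here. Ero1a is listed under its present symbol and was chosen as Ero1l. RNA came from the corneal epithelium of C57BL/6 mice of both sexes at 8 weeks of age. The injured group was epithelium in which the whole layer out to the limbal border had been scraped off with a 0.5 mm rust ring remover and had regrown for about 48 hours, when 10% of the wound was still open. The uninjured group was epithelium of the fellow eyes, collected at the same time from animals that had the same ketamine and xylazine anaesthesia. Each group is 1 array, and the labels do not say how many mice stand behind it. The values are log2 intensities, so 1 unit is 2-fold, and with 1 array per group no difference has a replicate check or a test. Levels of different genes on an array cannot be ranked, because each row has its own probes, so only differences between the arrays are compared.

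Chaperones bind unfolded protein and use cycles of ATP binding, or a closed folding chamber, to let it fold. Hsp70 proteins take their substrates from J-domain proteins and are reset by nucleotide exchange factors such as the Hsp110 proteins, Hsp90 proteins finish the folding of kinases and receptors, and the ring-shaped chaperonins enclose actin, tubulin and many mitochondrial enzymes. Heat and other stress raise cytosolic chaperones through the heat shock factor Hsf1, and misfolded protein in the ER raises ER chaperones through Atf6 and Xbp1, the unfolded protein response. In surface epithelia small heat shock proteins are also part of normal differentiation.

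Most chaperone genes were higher in the injured epithelium, and few of them by much. Of the 49 measured members 43 (87.8%) had a difference above 0, against 58.4% of the 19512 genes measured on the arrays. At least 2-fold higher were 7 members (14.3%), namely Hspa4l, Hsph1, Hspb8, Hspd1, Hsf2, Hspa9 and Hspe1, against 4.14% of all measured genes. Of these Hsf2 passed the low-signal filter only through the injured array, where it is high. At least 2-fold lower were Cryab and Hspb1, 2 of 49 (4.08%), close to the 3.92% of all measured genes. The median difference of the members was 0.65 on the log2 scale (1.56-fold), and that of all measured genes was 0.06. At 1.5-fold the count was 26 members higher (53.1%), against a background of 11.1%, and 2 lower, against 8.76%. Among brightly measured genes, those whose brighter value was at or above the 75th percentile of the table, 6 of 45 members were at least 2-fold higher, against 6.14%, and 2 of 45 at least 2-fold lower, against 5.76%. By compartment the median difference was 0.65 for 27 measured cytosolic members, 1.05 for 5 mitochondrial members and 0.58 for 15 ER members. Near the 2-fold line, Hspe1 (1.05) and Hspb1 (-1.03) lay just inside, and Ero1a (0.98), Hsp90aa1 (0.97) and Hspa8 (0.96) just outside. Rows of the same gene disagreed in their log2 difference with an SD of 0.24 (542 rows of 256 genes), and 16 members lay within that distance of the line. Of these 4 were inside (Hspe1, Hspa9, Hspb1 and Cryab) and 12 outside. This SD is a spread between rows on the same pair of arrays and holds no spread between animals or arrays. With 1 array per group the side of no member is settled, and that of these 16 least of all.

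**Figure D1:**
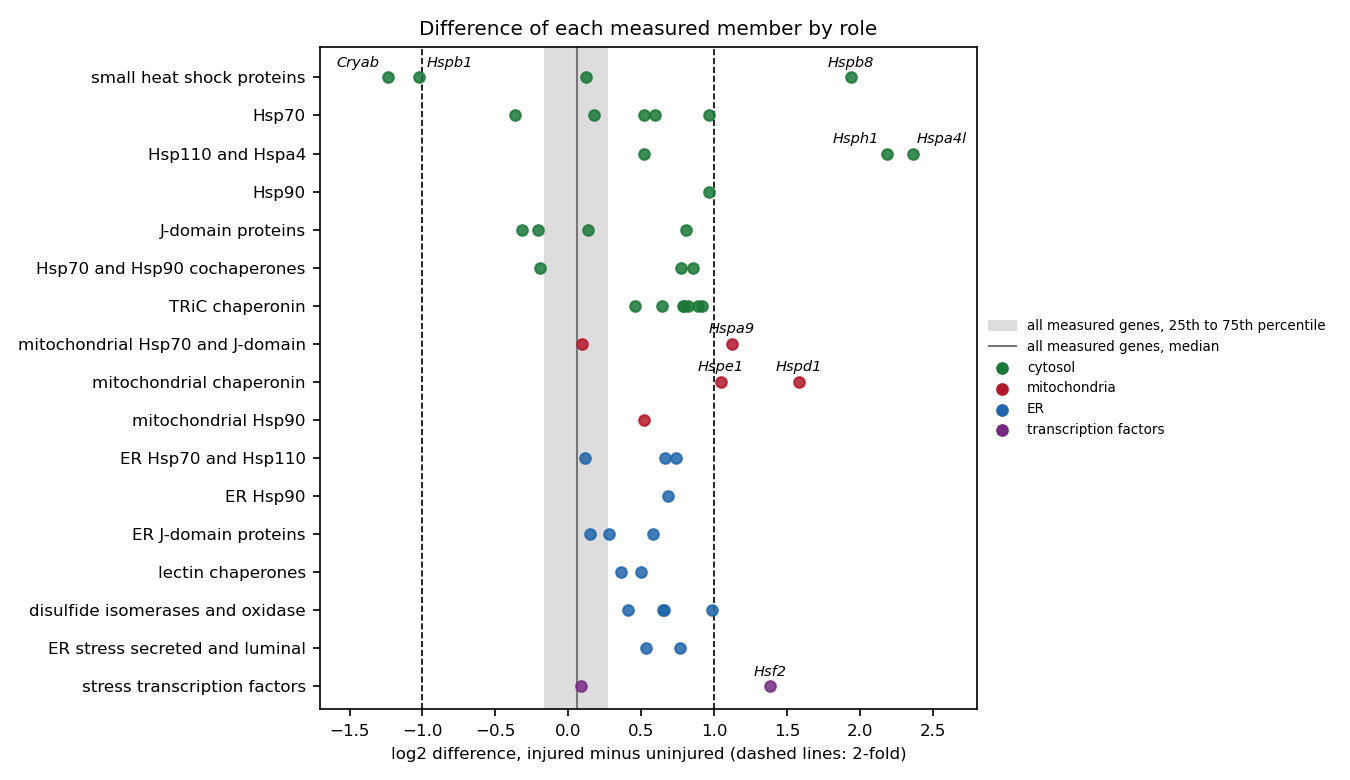
Each point is the log2 difference, injured minus uninjured, of 1 measured member, grouped by role and coloured by compartment, with dashed lines at 2-fold, a grey line at the median of all measured genes (0.06) and a grey band over their 25th to 75th percentile (-0.16 to 0.27). The 15 ER members lie between 0.12 and 0.98, while the cytosolic members run from -1.24 for Cryab to 2.36 for Hspa4l.

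In the cytosol the largest differences belonged to the Hsp110 family, relatives of Hsp70 that act as its nucleotide exchange factors and help to dissolve aggregates. Hspa4l, also called Apg1, had 9.19 in the injured and 6.83 in the uninjured epithelium, a difference of 2.36 (5.14-fold) that ranked 81 from the highest of 19512 genes. Hsph1 (Hsp105) had 9.74 in the injured and 7.56 in the uninjured epithelium, a difference of 2.19 (4.55-fold) at rank 111. These were the only members at least 4-fold apart. Their close relative Hspa4 (Apg2) differed much less, with 10.93 in the injured and 10.41 in the uninjured epithelium (0.52).

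The Hsp70 proteins themselves were divided. Hspa8, the constitutive Hsc70 that folds new protein and uncoats clathrin vesicles, had 13.89 in the injured and 12.92 in the uninjured epithelium (0.96, 1.95-fold). Its 4 rows of its own gave differences from 0.96 to 0.97, but the identifier of none of them is numbered under chromosome 9, where the gene lies, so which locus gave the signal is uncertain. The row under chromosome 9, which also carries the small nucleolar RNAs Snord14c, Snord14d and Snord14e, had 11.29 in the injured and 10.27 in the uninjured epithelium (1.02). The stress-inducible Hspa1a went the other way by a small amount, with 10.98 in the injured and 11.35 in the uninjured epithelium (-0.36). The row annotated to both Hspa1a and its near-identical neighbour Hspa1b had 11.04 in the injured and 11.29 in the uninjured epithelium (-0.25), and the signal of the 2 copies cannot be told apart. Hspa14, an Hsp70 bound to ribosomes, differed by 0.59, the testis-enriched Hspa2 by 0.52 and the distant relative Hspa12a by 0.18.

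On the rows that name no other gene, Hsp90aa1, Stip1 and Ahsa1 were higher by less than 2-fold. Hsp90aa1, the inducible cytosolic Hsp90, had 11.54 in the injured and 10.58 in the uninjured epithelium (0.97, 1.95-fold), and the rows it shares with Gm12346 and Gm5844 gave 1.14 and 1.11. Stip1 (Hop), which hands substrates from Hsp70 to Hsp90, had 10.89 in the injured and 10.04 in the uninjured epithelium (0.85). Ahsa1, the activator of the Hsp90 ATPase, had 8.98 in the injured and 8.21 in the uninjured epithelium (0.77). Bag3, which couples Hsp70 and small heat shock proteins to autophagy, differed by -0.20. Among the J-domain proteins that bring substrates to Hsp70, Dnajc2, a ribosome-bound partner of Hspa14, had 8.83 in the injured and 8.02 in the uninjured epithelium (0.81). Dnaja2 differed by 0.14, Dnajb1 (Hsp40) by -0.21 and Dnajb4 by -0.32, and the row that Dnaja1 shares with Mir207 by 0.94. The 6 measured members with differences below 0 were Cryab, Hspb1, Hspa1a, Dnajb4, Dnajb1 and Bag3. Of these Hspb1, Hspa1a, Dnajb1 and Bag3 are known to be induced by heat through Hsf1. So are Hsph1 (2.19) and the inducible Hsp90aa1 (0.97), which were higher. These are examples and no full list for either sign, so no share of heat-induced members that were higher or lower is given. The other members with positive differences were not sorted by this trait, and a heat shock response was not tested.

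The subunits of TRiC, the cytosolic chaperonin that folds actin and tubulin, were close together. All 7 measured subunits had differences above 0, against 58.4% of all measured genes. None reached 2-fold, which at a background of 4.14% says little for 7 genes. Their median was 0.79 (1.73-fold), with a range of 0.46 to 0.92. The SD over subunits was 0.16, against an SD of 0.61 over all measured genes. Cct3 had 10.39 in the injured and 9.47 in the uninjured epithelium (0.92), and Cct2 had 11.80 in the injured and 10.91 in the uninjured epithelium (0.89). Cct8 (0.82), Cct5 (0.79), Cct7 (0.78) and Tcp1 (0.65) followed. Cct4 was lowest, with 8.48 in the injured and 8.02 in the uninjured epithelium (0.46). The row that holds the remaining subunit, Cct6a, together with Snora15 differed by 0.90. Without the TRiC subunits the median of the cytosolic members was 0.52.

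The small heat shock proteins hold unfolding protein without ATP. Among the families of members they alone had genes at least 2-fold apart in both directions. This rests on 4 measured genes, and Hspb1 and Cryab lay within the row SD of 0.24 of the line. Hspb8, a partner of Bag3, had 9.06 in the injured and 7.13 in the uninjured epithelium (1.94, 3.83-fold). Hspb1 (Hsp25), abundant in differentiated epithelia, had 9.39 in the injured and 10.42 in the uninjured epithelium (-1.03). Cryab, the lens crystallin that is also a general small heat shock protein, had 7.47 in the injured and 8.71 in the uninjured epithelium (-1.24). Hspb6 differed by 0.12. Hspb2, the gene next to Cryab, had 7.07 in the injured and 6.74 in the uninjured epithelium (0.33). Cryab, Hspb6 and Hspb2 are best known from lens and muscle, so markers of both were read beside them. None of 3 lens markers above the low-signal level was 2-fold apart, and Cryba1 and Crygs lay below it. The summed linear intensity of all 5 lens markers was 374 in the injured and 336 in the uninjured epithelium, and the other lens alpha crystallin, Cryaa, had 6.86 in the injured and 6.83 in the uninjured epithelium. The 3 muscle markers summed to 302 in the injured and 287 in the uninjured epithelium.

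**Figure D2:**
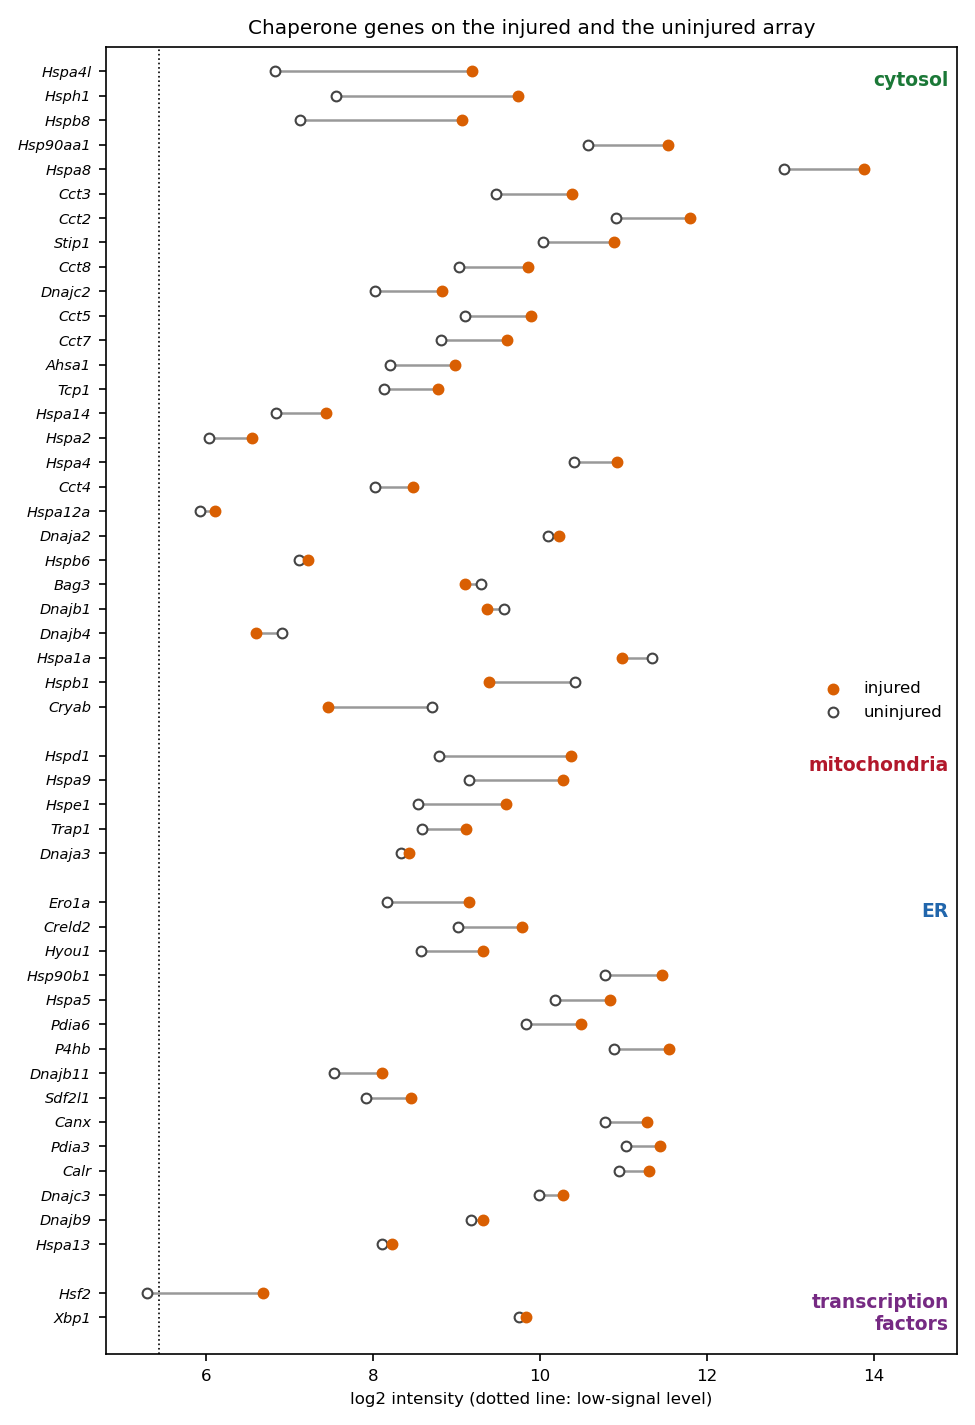
Log2 intensity of each of the 49 measured members on the injured array (filled orange) and the uninjured array (open), by compartment and in order of the difference, with the low-signal level of 5.44 as a dotted line. The open point of Hsf2 (5.29) is the only value left of that line, and the filled point lies left of the open one for Bag3, Dnajb1, Dnajb4, Hspa1a, Hspb1 and Cryab.

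Of the 5 mitochondrial chaperones 3 were at least 2-fold higher in the injured epithelium, against 4.14% of all measured genes, and all 5 had differences above 0, against 58.4%. Of the 3, Hspe1 and Hspa9 lay close to the line. Hspd1 (Hsp60), which forms the mitochondrial chaperonin ring, had 10.38 in the injured and 8.80 in the uninjured epithelium (1.58, 2.99-fold). Hspe1 (Hsp10), the lid of that ring, had 9.59 in the injured and 8.54 in the uninjured epithelium (1.05, 2.07-fold). Hspa9 (mortalin), the Hsp70 that also pulls proteins into the matrix, had 10.28 in the injured and 9.16 in the uninjured epithelium (1.12, 2.17-fold). The mitochondrial Hsp90, Trap1, had 9.12 in the injured and 8.59 in the uninjured epithelium (0.52). Dnaja3 (Tid1), the J-domain partner of Hspa9, had 8.43 in the injured and 8.33 in the uninjured epithelium (0.10). Chaperonin and Hsp70 thus differed by more than the Hsp70 partner Dnaja3 and the Hsp90.

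Hspd1 and Hspe1 lie head to head, and the RefSeq windows of GRCm38.p6 (250 bases before to 50 after each annotated start) overlap between them. Heat shock factors bind arrays of the unit GAA in alternating orientation. An exact match to 3 such units in a row, GAANNTTCNNGAA on either strand, was present in the windows of 3 of 45 members with a window (6.67%) and of 0.662% of 27025 genes. The 3 members are Hspd1, Hspe1 and Hsph1, which are at least 2-fold higher. As many members at least 2-fold higher, Hspa4l, Hspb8 and Hsf2, have a window without this match. The matches of Hspd1 and Hspe1 are the same stretch, chr1:55088053-55088082, shown on the strand of Hspe1, where 2 overlapping matches make 4 alternating units. That of Hsph1, chr5:149636287-149636308 on the minus strand, lies just after its start. A pair of units, GAANNTTC or TTCNNGAA, both of which are part of the longer match, occurred in 14 of 45 members (31.1%) and 17.0% of all genes. Its measured carriers ran from -1.03 for Hspb1 to 2.19 for Hsph1, with a median of 0.79 (11 genes), against 0.59 for the 30 without it. These 11 include the 3 genes of the longer match, so the median of 0.79 does not describe a pair alone. Measured carriers of a pair alone were Hspb8 (1.94), Cct2 (0.89), Cct5 (0.79), Hspb6 (0.12), Bag3 (-0.20), Dnajb4 (-0.32), Hspa1a (-0.36) and Hspb1 (-1.03). The stretches of Hspb1, chr5:135887801-135887830 on the plus strand, and of Hspa1a, chr17:34972242-34972271 on the minus strand, are shown as members that hold pairs and were not higher. They are picked examples, since Hspb8, Cct2 and Cct5 also hold pairs alone and were higher. Only exact matches were searched, so a further unit with a changed letter beside a pair is not counted. Capitals mark the fixed letters of the motif.
Hspe1: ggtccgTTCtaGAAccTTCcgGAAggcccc
Hsph1: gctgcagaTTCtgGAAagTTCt
Hspb1: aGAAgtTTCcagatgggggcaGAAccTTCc
Hspa1a: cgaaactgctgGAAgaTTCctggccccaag

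A match of letters is a description of the window and not a bound site. Cryab, Hspa8, Hsp90aa1, Hsp90ab1, Dnajc2, Cct4, Hspa9, Hspa13, Hyou1, Manf and Hsf1 have no window in the table used.

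In the ER 15 of 15 measured members had differences above 0, against 58.4% of all measured genes. None reached 2-fold, which at a background of 4.14% says little for 15 genes. Their differences ran from 0.12 to 0.98, with a median of 0.58 (1.49-fold) and an SD over genes of 0.24. Hspa5 (BiP), the main ER Hsp70 and the protein that holds the stress sensors of the ER inactive, had 10.85 in the injured and 10.18 in the uninjured epithelium (0.66, 1.58-fold). Its exchange factor Hyou1 (Grp170) had 9.31 in the injured and 8.57 in the uninjured epithelium (0.74). Hsp90b1 (Grp94), the ER Hsp90, had 11.47 in the injured and 10.79 in the uninjured epithelium (0.68). These 3 soluble chaperones of the BiP system lay close together. Hspa13, an ER Hsp70 without the substrate-binding domain, differed by 0.12. Among the ER J-domain proteins Dnajb11 (ERdj3) differed by 0.58, Dnajc3 (p58IPK) by 0.28 and Dnajb9 (ERdj4) by 0.15. The lectin chaperones, which hold newly made glycoproteins by their sugars, differed by 0.50 for Canx and 0.36 for Calr.

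The highest ER value belonged to an oxidase of disulfide bond formation and not to the disulfide isomerases. Ero1a, the oxidase that recharges protein disulfide isomerase, had 9.15 in the injured and 8.17 in the uninjured epithelium (0.98, 1.98-fold). The isomerases Pdia6 (0.66), P4hb (0.65) and Pdia3 (0.41) lay below Hyou1 (0.74) and Hsp90b1 (0.68), and the row that Pdia4 shares with Mir704 differed by 0.11. Creld2, an ER stress-induced secreted protein, had 9.79 in the injured and 9.02 in the uninjured epithelium (0.77). Sdf2l1, a partner of Dnajb11, had 8.45 in the injured and 7.92 in the uninjured epithelium (0.53), and the row shared by Manf and Rbm15b differed by 0.29.

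The ER stress element, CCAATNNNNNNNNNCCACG on either strand, is the site through which Atf6 and NF-Y raise ER chaperones. It was found in 7 of 14 ER members with a window, in 0 of 25 cytosolic and 0 of 4 mitochondrial members, and in 37 of 27025 genes (0.137%). The 7 carriers, Hspa5, Hsp90b1, Dnajc3, Calr, Canx, Pdia6 and Creld2, differed by 0.28 to 0.77 with a median of 0.66, and the 6 measured ER members with a window and no match by 0.15 to 0.98 with a median of 0.56. A second form of the element, ATTGGNCCACG, was also searched and matched 12 of 27025 genes. Among the members it matched Dnajb11 (0.58) alone, which counts here as a non-carrier. The ranges of carriers and non-carriers of the first form overlap. Elements of the first form are shown because among the members they occur in ER genes alone, though not in all of them: the full 250 bases before the start of Hspa5, and the element with 6 bases on each side for the others. They lie on GRCm38.p6 at chr2:34771840-34772089 (Hspa5, plus strand), chr10:86705527-86705662 (Hsp90b1, minus strand, 2 elements in opposite orientation), chr14:118937821-118937851 (Dnajc3, plus), chr8:84847069-84847099 (Calr, minus), chr11:50325794-50325824 (Canx, minus), chr12:17266485-17266515 (Pdia6, plus) and chr15:88819514-88819544 (Creld2, plus). Capitals mark the fixed letters of the element, which reads in reverse in Calr, Creld2 and the second copy of Hsp90b1.
Hspa5: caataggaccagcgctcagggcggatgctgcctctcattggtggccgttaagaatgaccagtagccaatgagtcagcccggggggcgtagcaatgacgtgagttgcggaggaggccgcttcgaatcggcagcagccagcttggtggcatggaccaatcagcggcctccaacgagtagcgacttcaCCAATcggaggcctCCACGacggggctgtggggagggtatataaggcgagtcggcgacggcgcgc
Hsp90b1: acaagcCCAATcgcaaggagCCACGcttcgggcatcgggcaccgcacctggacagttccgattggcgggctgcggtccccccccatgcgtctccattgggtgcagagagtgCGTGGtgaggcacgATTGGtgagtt
Dnajc3: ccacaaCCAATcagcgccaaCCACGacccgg
Calr: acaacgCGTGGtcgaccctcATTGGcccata
Canx: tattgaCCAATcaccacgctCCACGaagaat
Pdia6: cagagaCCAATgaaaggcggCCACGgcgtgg
Creld2: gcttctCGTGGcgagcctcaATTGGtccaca

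**Figure D3:**
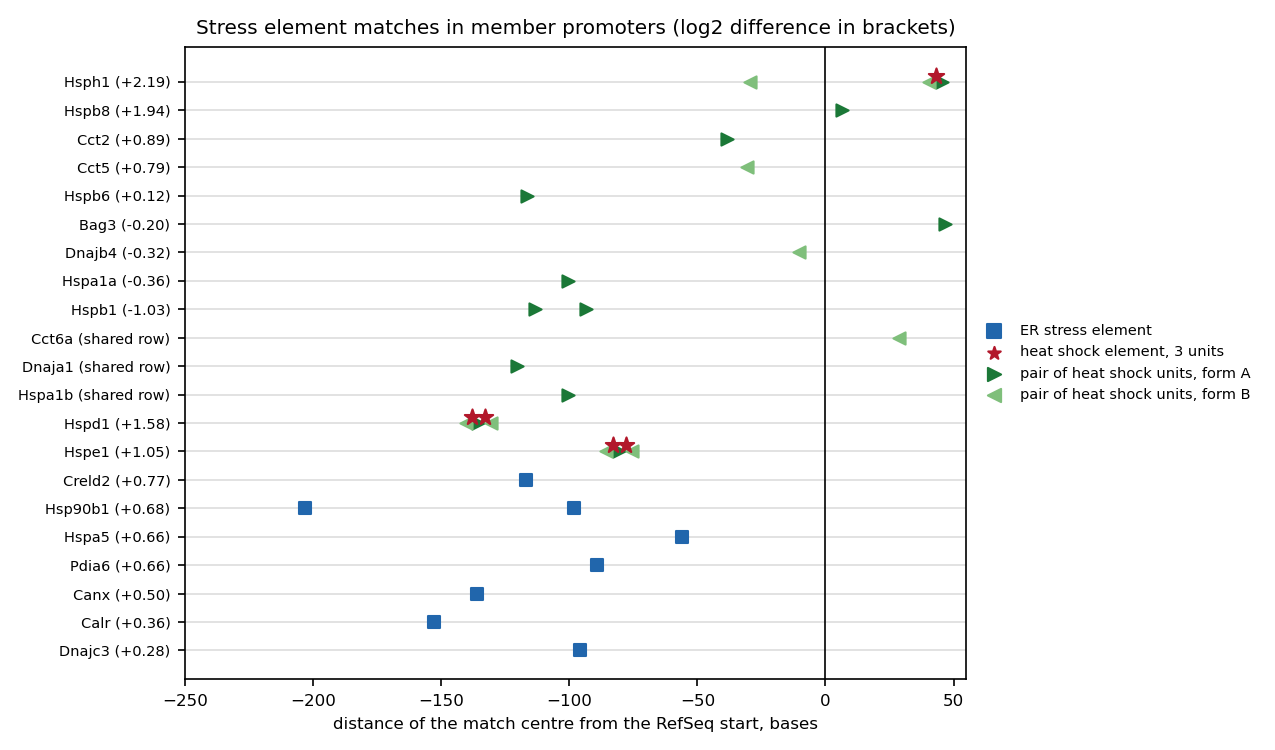
Position of exact matches in 1 RefSeq window per gene, as the distance of the match centre from the annotated start, with the log2 difference of the gene in brackets; squares are the ER stress element, stars 3 heat shock units, and triangles a pair of units (form A is GAANNTTC, form B TTCNNGAA). Squares stand on the 7 ER genes only, and stars on Hsph1 (2.19), Hspd1 (1.58) and Hspe1 (1.05).

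Of the transcription factors, Hsf2, a heat shock factor that acts with Hsf1 and in development, had 6.68 in the injured and 5.29 in the uninjured epithelium (1.39, 2.61-fold). The uninjured value lay below the low-signal level, so the gene passed the filter through the injured array alone and the size of its difference is uncertain. With a constant added on the linear scale its difference was 1.13. Xbp1, the factor that the ER stress sensor Ire1 activates by splicing, had 9.84 in the injured and 9.75 in the uninjured epithelium (0.09). Splicing of Xbp1 is not read by these values. Hsf4, the heat shock factor of the lens, differed by 0.31, and Hsbp1, which binds heat shock factors, by -0.52.

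The wider folding machinery had differences close to those of all genes. Of 134 measured genes in lists of cochaperones, other J-domain proteins, prefoldin, mitochondrial quality control, other ER folding factors, the unfolded protein response with ER-associated degradation, and other heat shock factors, 4 (2.99%) were higher by 2-fold or more and 2 (1.49%) lower, and their median difference was 0.07. The backgrounds are 4.14% and 3.92% and the median of all measured genes is 0.06. The higher ones were Ppid, a cyclophilin partner of Hsp90 (1.26), the ER reductase Dnajc10 (1.19), the ER peroxiredoxin Prdx4 (1.16) and the ER prolyl isomerase Fkbp11 (1.13). The lower ones were Dnajc24, which acts in diphthamide synthesis (-1.17), and the ER thioredoxin Txndc12 (-1.17). The Hsp90 cochaperones Fkbp4 (0.78), Ptges3 (0.66) and Fkbp5 (-0.70) and the exchange factors of Hspa9, Grpel1 (0.40) and Grpel2 (-0.59), were less than 2-fold apart. The negative ones, Fkbp5 and Grpel2, were chosen after their values were seen, so the mix of signs here is not a result. In the whole list of cytosolic cochaperones 12 of 21 measured genes had differences above 0 (57.1%), against 58.4% of all measured genes. Prefoldin, which delivers actin and tubulin to TRiC, was listed with tubulin folding cofactors and phosducin-like regulators, and this list had a median of -0.0047 over 14 genes, against 0.79 for the 7 TRiC subunits. The list of the unfolded protein response and ER-associated degradation had 0 of 29 genes past 2-fold in either direction, with a median of 0.10. By list the medians ran from -0.13 for other heat shock factors to 0.25 for mitochondrial quality control. Other ER folding factors had 3 of 35 genes at least 2-fold higher (8.57%) and 1 lower (2.86%), against 4.14% and 3.92%.

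**Figure D4:**
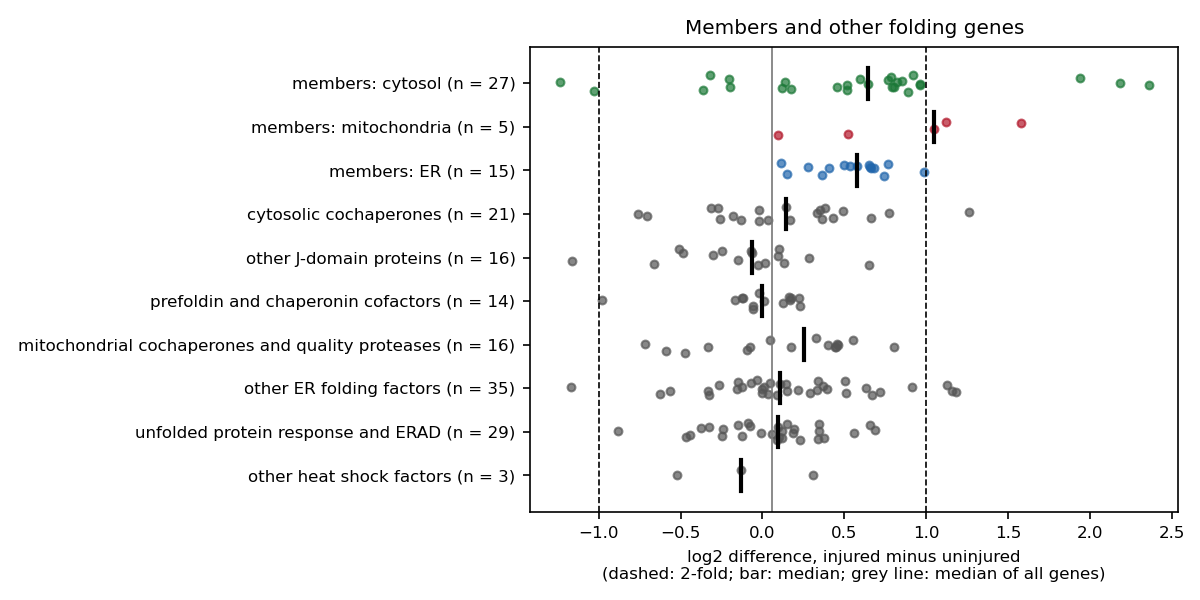
Log2 differences, injured minus uninjured, of the members by compartment (coloured) and of the other folding genes by list (grey), with a bar at each median, dashed lines at 2-fold and a grey line at the median of all genes. The medians of the members are 0.65, 1.05 and 0.58, and those of the other lists lie between -0.13 and 0.25.

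As a check of the tissue, the corneal epithelium markers Krt5, Krt14, Krt12, Pax6 and Aldh3a1 were above the low-signal level on both arrays, and Krt12, the corneal keratin, had 10.85 in the injured and 14.07 in the uninjured epithelium (-3.22). Aldh3a1 (-2.68) and Pax6 (-1.32) were lower too, as Hspb1 and Cryab were, and Krt14 was higher (2.23). In such bulk RNA, fewer cells of a type and less RNA per cell cannot be told apart. Of 4 leukocyte markers above the low-signal level 0 were 2-fold apart, and Ptprc lay below that level. Lyz2 differed most, with 6.33 in the injured and 5.46 in the uninjured epithelium (0.87). The summed intensity over all 5 was 770 in the injured and 647 in the uninjured epithelium, a sum carried mostly by Cd68 (0.20). The 5 stromal markers summed to 292 in the injured and 358 in the uninjured epithelium, Dcn was at least 2-fold lower (-1.31), and Kera and Lum lay below the low-signal level. The 5 conjunctival and goblet cell markers summed to 7906 in the injured and 8357 in the uninjured epithelium, a sum carried by Krt13 and Krt4. The goblet cell mucin Muc5ac had 5.81 in the injured and 7.07 in the uninjured epithelium (-1.26). The part of these cells and of lost differentiation in the members' differences was not tested.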

How the data were processed

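RNA of injured and uninjured corneal epithelium (2 µg each, labelled with biotin per the labels) was read on 1 array per group. The authors deposited log2 intensities of 65952 rows, from 2.54 to 14.07. The submitters' processing notes name Agilent Feature Extraction 9.1, although the rows have the form of transcript clusters. The sources used here do not give the genome build, the background correction or the normalization. Column medians differ by 0.01, so values were kept as deposited. Rows were named from the platform annotation, with symbols updated through RefSeq (GRCm38.p6): 31254 rows carried 1 gene, 1492 several and 33206 are unnamed here. A row was kept when its brighter value reached 5.44, the median of all values, leaving 19512 genes, and of several kept rows of a gene the one brightest on average was used. A gene counted as higher or lower at 2-fold, with no test. Shared rows are quoted as such and enter no count. Members, lists, compartments and motifs were chosen with earlier results of these data known. Every measured member could be named, and of the other lists genes at least 2-fold apart, up to 4 near a member in role, and all markers. Hsf4, Hsbp1, Fkbp5 and Grpel2 were chosen after their values were seen. Promoters are RefSeq's, searched for exact matches on both strands. The counting step was checked on simulated data. Python 3.11.15, pandas 2.3.3 and statsmodels 0.14.6 were used.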

Additional observations from a re-analysis of the deposited data

How the results depend on the processing

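All 9 members at least 2-fold apart stayed past 2-fold, and all 40 others stayed under it, under 9 alternatives (quantile normalization, equal medians, equal 75th percentiles, loess, no filter, a filter at the 75th percentile, the mean row, the dimmest row, an added constant of 13.9) and 1 added after seeing the data (rows on the gene's own chromosome), wherever the gene remained measured. The 75th percentile filter left out Hsf2, Hspa2, Hspa12a and Dnajb4, and the chromosome rule Hspa8. Every measured member except Hspa8 had 1 kept row. For these genes the filter settings, the mean row, the dimmest row and the chromosome rule could not change the value. Equal medians and equal 75th percentiles moved every member alike, by 0.01 and 0.005. For these genes only quantile normalization, loess and the added constant could do more. No member changed sign. The median of the members ran from 0.57 (loess) to 0.65. Counting the shared rows of the 5 members that have only such rows, also added later, gave 7 higher and 2 lower of 54. Shared rows of members with a row of their own stayed out of this count. Among them are those of Hsp90aa1 (1.14 and 1.11) and Hspa8 (1.06 and 1.02), which lie past 2-fold. At 1.5-fold 26 members and 2173 of all genes were higher and 1710 of all genes lower. At 4-fold 2 members and 138 genes were higher and 0 members and 152 genes lower. No paired analysis was possible because each group is 1 array. That number limits every value, and no detection or saturation call was used.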

Other observations

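Of the deposited rows 813 (1.23%) hold exactly the same value on both arrays, to the last digit given, among them the rows used for 156 measured genes. None of the 49 members is among these. Among the other folding genes Pdia2 (5.71 on both arrays) and Ero1b (5.74 on both arrays) are, and both lie near the low-signal level.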
